A study of Mus musculus with 24 samples.

Results

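The genes described here are 5 acyl-CoA thioesterase genes (Acot1, Acot2, Acot3, Acot4 and Acot12) and the 2 acyl-CoA N-acyltransferase genes Acnat1 and Acnat2, chosen by name from the gene column of the array files. They are 7 of the 34787 names on the array and are read by 9 of its 55681 probes, with 2 probes each for Acot3 and Acnat2 and 1 for each of the others. All 7 were measured well enough to be tested in both tissues. The arrays came from male C57BL/6 mice, 2 months old, that carried human PER1 (hPER1): the control groups carried hPER1 S714 and the mutant groups hPER1 S714G, in which the serine is replaced by glycine. The mice lived under light-dark cycles for 10 days before sampling of liver and of white adipose tissue at zeitgeber times ZT1 and ZT13, which count hours from lights on. The 8 groups are therefore liver control, liver mutant, adipose control and adipose mutant, each at both times, with 3 arrays per group and 24 arrays in all. The control mice also carry a human PER1, so each genotype comparison is between 2 human forms of the protein. The labels do not name the promoter or insertion of the human gene, the white fat depot, or the state of the mouse Per1 gene.

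Acyl-CoA thioesterases split a fatty acyl-CoA into the free fatty acid and coenzyme A, and so set how much activated fatty acid a compartment of the cell holds. Acot1 acts in the cytosol, Acot2 in mitochondria, and Acot3 and Acot4 in peroxisomes, where Acot4 is known for succinyl-CoA and other dicarboxylyl-CoAs. These genes lie in one cluster of the mouse genome, arose by duplication, and are known targets of the fasting-activated receptor PPAR alpha in liver. Acot12 is a separate cytosolic enzyme of liver and kidney that hydrolyses acetyl-CoA. Acnat1 is a peroxisomal relative of these thioesterases that joins fatty acids to taurine, Acnat2 is its close neighbour and sequence relative, and both belong with Baat, the enzyme that conjugates bile acids.

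The probes decide which of these close relatives each value stands for, so the stretches where they resemble each other are shown first. The Acnat1 probe lies on chromosome 4 at chr4:49460163-49460222 and the brighter Acnat2 probe at chr4:49392940-49392999, both on the minus strand of build mm9, 67283 bases from the first to the last base. The 2 stretches below, at chr4:49460185-49460214 and chr4:49392970-49392999, are aligned, and capitals mark bases that are equal in both.
Acnat1 probe: GAAGCAAACTCTAAATAGaGTGTccAtgcC
Acnat2 brighter probe: GAAGCAAACTCTAAATAGtGTGTaaAgtgC
Of these 30 bases 24 are equal, the longest run that the full 60-base probes share is 18 bases, and another shared run of 16 bases follows. No other probe on the array shares 16 or more bases with either. The dimmer Acnat2 probe starts 212 bases away, at chr4:49392728-49392787, and shares no run of 16 bases with any probe. It lies outside the stretch that resembles the Acnat1 probe, but how far it matches the Acnat1 transcript was not tested.
Acnat2 dimmer probe (chr4:49392758-49392787, minus strand): cctgcatctgaagtgttcctgacaaatctg

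The Acot1, Acot2, Acot3 and Acot4 probes span 66441 bases of chromosome 12, all on the plus strand. The Acot1 probe lies at chr12:85358561-85358620, the Acot2 probe at chr12:85334071-85334130 and the Acot4 probe at chr12:85384821-85384880. The Acot3 probes start 984 bases apart, at chr12:85400452-85400511 for the brighter and chr12:85399468-85399527 for the dimmer, and the Acot12 probe lies elsewhere, at chr13:91925586-91925645. No 2 of these Acot probes share a run of 16 bases, but how far each probe matches the transcripts of the other duplicated genes was not tested. The brighter Acot3 probe is of another kind: 22 of its 60 bases lie in CA repeats, marked by capitals below, and 6 other probes on the array share 16 or more bases with it.
Acot3 brighter probe (chr12:85400455-85400484): tACACACACACatatACACACaagCACACA
Acot3 dimmer probe (chr12:85399468-85399497): tcatcaatggctctatatccaacatcggcg
Acot4 probe (chr12:85384821-85384850): tgctggatgacatgaaattcatgtttaggg

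Each value below is a log2 level, the log2 signal of a probe minus the 75th percentile of its array, so 0 is that percentile and 1 unit is a doubling in signal; levels of different probes are not compared. Between 45.5% and 71.2% of spots per array were well above background by the scanner software, no spot was saturated, and arrays of a group correlated at 0.94 to 0.99. Each group has 3 arrays that the study calls independent repeats, without saying that each is another mouse, so p-values measure the spread between these arrays. Arrays lay on 3 slides, and the liver control arrays of ZT1 lay on slide 1, which held no other liver array. Within liver, a difference that rests on that group and a difference between slides cannot be told apart. The liver mutant arrays lay on slide 2 at ZT1 and on slide 3 at ZT13. In mutant liver, time and slide therefore cannot be told apart either. Values with slide as a term in a fit of all 24 arrays are given for the liver calls of the members that they end. That fit ties slide 1 to the other slides only through the adipose mutant ZT1 arrays. Replicates 1 and 2 of that group lay on slide 1 and replicate 3 on slide 2. Slide-adjusted liver values that use control ZT1 thus depend on those adipose arrays and cannot decide whether slide made a liver difference. None of those arrays was well above background for Acnat1, Acot12 or the dimmer probes. The adipose control arrays lay on slide 1 at ZT1 and slide 2 at ZT13, and the mutant ones on slides 1 and 2 at ZT1 and slide 3 at ZT13. Time and slide therefore cannot be told apart in adipose tissue, nor can genotype and slide there at ZT13. Centring arrays on their median in place of the 75th percentile moved the median of all genes by 0.51 for the liver genotype difference at ZT1, 0.64 for the liver and 0.51 for the adipose time difference in control mice, 0.35 for the adipose time difference in mutant mice and -0.54 for the liver interaction. White adipocyte markers were at 9.02 to 9.58 in adipose and 3.31 to 4.15 in liver arrays, as the tissue labels say.

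All 7 genes differed between liver and white adipose tissue over the 4 pairs of groups: 6 were higher in liver and Acot2 was higher in adipose. Of all 24289 genes tested, 75.4% differed between the tissues, so a call as such is common and the sizes tell more. Acot12, the acetyl-CoA hydrolase, had the largest difference of the 7, from 2.45 to 3.97 on the liver arrays and from -7.39 to -0.36 on the adipose arrays, where 7 of 12 arrays were well above background. Its liver level was at least 176-fold higher, counting each of the 5 dim arrays at the lowest signal well above background on it (log2 difference 7.74, standard error (SE) 0.40, adjusted p = 5.45e-13). Acnat1 reached -0.81 to 2.57 in liver and -7.87 to -2.04 in adipose, where none of the 6 mutant arrays was well above background, which makes liver at least 48.0-fold higher, with all 7 dim adipose arrays counted in that way (6.29, adjusted p = 6.25e-10).

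Acnat2 was at least 65.4-fold higher in liver by its brighter probe, which 2 mutant arrays of ZT1 did not measure well above background (log2 difference 6.20, SE 0.38, adjusted p = 9.84e-12), with liver arrays at 0.21 to 3.74 and adipose arrays at -6.00 to -1.09. On its dimmer probe 0 of 12 adipose arrays were well above background, which gives liver at least 34.6-fold higher. Acot1, the cytosolic long-chain thioesterase, was 29.7-fold higher in liver (4.89, SE 0.23, adjusted p = 1.86e-13), with liver at 4.05 to 5.14 and adipose at -1.83 to 1.95. None of these 4 genes overlapped between the tissues, but the share of all genes without overlap was not counted.

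Acot4 and Acot3 differed less. Acot4 was 3.61-fold higher in liver on average (1.85, SE 0.19, adjusted p = 3.1e-08), but its adipose arrays, at -2.90 to 0.40, overlapped its liver arrays, at -1.05 to 1.73. The probes of Acot3 did not give the same size: the brighter, CA-rich probe was 2.05-fold higher in liver (1.03, adjusted p = 1.64e-07), with overlap, and the dimmer probe at least 23.97-fold higher (adjusted p = 3.59e-12). On the dimmer probe only 1 of 12 adipose arrays was well above background, against 11 of 12 liver arrays. Acot2, the mitochondrial enzyme, went the other way, 3.71-fold higher in adipose (log2 difference -1.89, SE 0.17, adjusted p = 3.32e-09), with adipose at -1.36 to -0.13 and liver at -3.89 to -1.96. With every probe tested on its own, 9 of 9 member probes differed between the tissues, against 74.1% of 35310 probes.

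In liver at ZT13 Acnat1 and Acnat2 were several-fold higher in the mutant than in the control mice, and none of the 5 thioesterase genes passed the test. Acnat1 stood at 2.36, 2.43 and 2.57 on the mutant arrays and at 0.77, -0.81 and -0.29 on the control arrays. Every mutant array was above every control array, and the mutant arrays lay closer together (SD 0.11) than the control arrays (SD 0.81). The difference was 2.57 on the log2 scale (SE 0.35), 5.92-fold, with an adjusted p of 0.00279.

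Acnat2 stood at 3.46, 3.38 and 3.74 in the mutant and at 1.34, 0.22 and 0.21 in the control by its brighter probe, again with no overlap. The fold was 7.65 (log2 difference 2.94, SE 0.42, adjusted p = 0.00327). Its dimmer probe, which lies outside the stretch shared with the Acnat1 probe, stood at 1.05, 0.85 and 1.06 against -0.88, -1.09 and -1.54. That is 4.46-fold higher (2.16, SE 0.22, adjusted p = 0.000631), so Acnat2 was higher in the mutant by both probes.

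**Figure D1:**
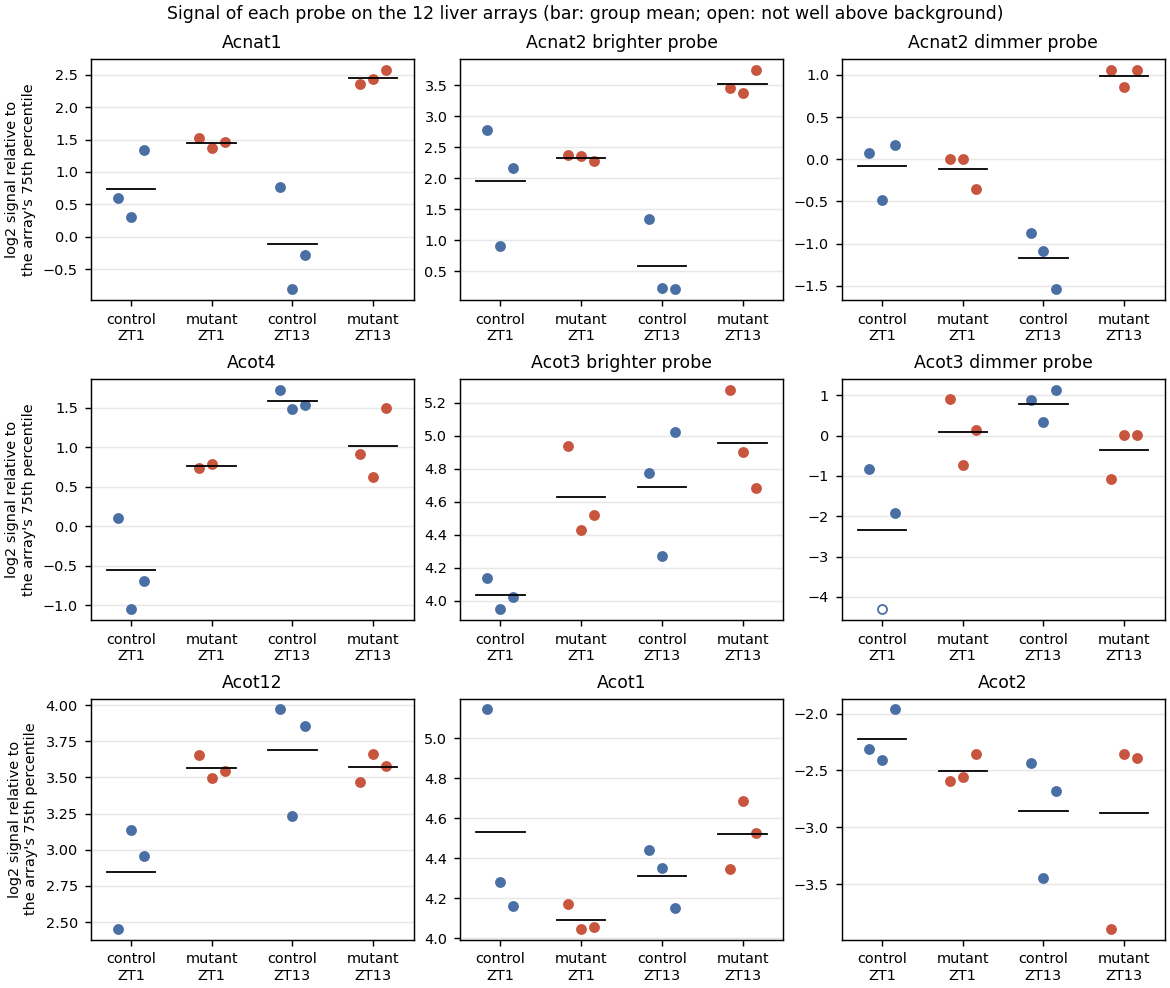
Log2 level of each member probe (vertical axis, log2 signal minus the array's 75th percentile) on the 12 liver arrays, by genotype and time (horizontal axis). Points are arrays, bars are means of 3 arrays (2 for Acot4 in mutant mice at ZT1), and open points were not well above background; at ZT13 the mutant points of Acnat1 and of both Acnat2 probes lie above all control points.

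The 2 genes were among 658 of 21831 genes, 3.01%, that differed between genotypes in liver at ZT13, and by single probes 3 of 9 member probes differed, against 3% of 30816 probes. Within slide 3, which held 2 control and 3 mutant arrays of this comparison, the difference was 3.01 for Acnat1 (adjusted p = 0.00453) and 3.31 for Acnat2 (adjusted p = 0.00257). With slide as a term in the 24-array fit Acnat2 kept its call (3.31, adjusted p = 0.0343), while Acnat1 (3.01, 0.181) and the dimmer Acnat2 probe (2.30, 0.0631) did not. Both calls held with each array left out in turn; in a fit of all 24 arrays, whose spread also comes from adipose tissue, the adjusted p was 0.313 for Acnat1 and 0.0553 for Acnat2.

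The thioesterase genes at that time had log2 differences of 0.21 for Acot1, -0.02 for Acot2, 0.26 for Acot3, -0.57 for Acot4 and -0.12 for Acot12, with adjusted p values of 0.416 to 0.99. The dimmer Acot3 probe was at -1.14 (SE 0.73, adjusted p = 0.536). The standard errors leave room for differences of some size: that of Acot4 was 0.29.

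Over time the Acnat genes went different ways in the genotypes. In control liver Acnat2 fell from 2.78, 0.91 and 2.17 at ZT1 to 1.34, 0.22 and 0.21 at ZT13, with overlapping arrays (2.57-fold lower, log2 difference -1.36, SE 0.42, adjusted p = 0.0179). The dimmer probe fell from 0.08, -0.49 and 0.17 to -0.88, -1.09 and -1.54, without overlap (2.13-fold lower, adjusted p = 0.00201). Acnat1 went from 0.59, 0.30 and 1.34 to 0.77, -0.81 and -0.29 and did not pass (log2 difference -0.85, adjusted p = 0.0618). The fall of Acnat2 depended on the scaling: centred on the median it was -0.72 (adjusted p = 0.155) and on the dimmer probe -0.45 (adjusted p = 0.0908). With slide as a term, which here depends on the adipose mutant ZT1 arrays, it was 1.43 on the brighter probe (adjusted p = 0.77) and -1.53 on the dimmer (adjusted p = 0.65). It also lost its call on the brighter probe without control ZT1 replicate 1 (adjusted p = 0.0739) or 3 (0.0533) and without control ZT13 replicate 2 (0.0646) or 3 (0.0679).

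In mutant liver the Acnat values were higher at ZT13, where the arrays also lay on another slide than at ZT1. Acnat1 stood at 1.52, 1.37 and 1.46 at ZT1 and at 2.36, 2.43 and 2.57 at ZT13, a difference of 1.01 whose adjusted p was 0.2. Acnat2 stood at 2.37, 2.36 and 2.27 at ZT1 and at 3.46, 3.38 and 3.74 at ZT13 by its brighter probe, a difference of 1.19 (adjusted p = 0.199). Neither overlapped, and neither passed. By limma, none of the 7 genes passed in this comparison, where 2% of all genes did. An unadjusted p under 0.05 was found for 2 of the 7 and for 3091 of all 21831 genes. The dimmer Acnat2 probe did pass, 2.15-fold higher (1.10, SE 0.22, adjusted p = 0.0297), 1 of 9 member probes against 1.95% of all probes. That call was lost without some single arrays, in 6 of 12 cases, and with slide as a term (1.54, adjusted p = 0.85).

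The test of the difference between the genotypes' time differences, the interaction, passed for both genes. It was 1.86 for Acnat1 (SE 0.50, adjusted p = 0.0173) and 2.55 for Acnat2 (SE 0.59, adjusted p = 0.00911), and 2.19 on the dimmer Acnat2 probe (SE 0.31, adjusted p = 0.000877). In all, 3 of the 7 genes passed this test, the third being Acot4, against 31.2% of all genes. By single probes 5 of 9 passed, against 30.8% of all probes. Centred on the median, the interaction of Acnat1 was 1.32 (adjusted p = 0.0781), and with slide as a term the interaction was 4.96 for Acnat1 (adjusted p = 0.343), 0.88 for Acnat2 (0.907), 3.08 on the dimmer Acnat2 probe (0.293) and -0.14 for Acot4 (0.97).

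Acot4, the peroxisomal enzyme for dicarboxylyl-CoAs, differed with time in control liver. It stood at 0.10, -1.05 and -0.69 at ZT1 and at 1.73, 1.48 and 1.53 at ZT13, with all ZT13 arrays above all ZT1 arrays. It was 4.37-fold higher at ZT13 (log2 difference 2.13, SE 0.29, adjusted p = 0.000294). In mutant liver Acot4 stood at 0.74 and 0.79 at ZT1 and at 0.91, 0.63 and 1.49 at ZT13, which overlap (0.25, SE 0.33, adjusted p = 0.812); the third ZT1 spot was marked as an outlier by the scanner software and left out, so n = 2 there. The interaction was -1.88 (SE 0.44, adjusted p = 0.0109). Ordered by mean level, the liver groups ran from control ZT1 (-0.55), mutant ZT1 (0.76) and mutant ZT13 (1.01) to control ZT13 (1.58), and of these neighbours only the lowest pair did not overlap.

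Acot12 and Acot3 were also higher at ZT13 in control liver. Acot12 stood at 2.45, 3.14 and 2.96 at ZT1 and at 3.97, 3.24 and 3.86 at ZT13, without overlap (1.79-fold, log2 difference 0.84, SE 0.22, adjusted p = 0.0079). Acot3 stood at 4.14, 3.95 and 4.02 at ZT1 and at 4.78, 4.27 and 5.02 at ZT13 by its brighter probe, without overlap (1.57-fold, 0.65, SE 0.22, adjusted p = 0.03). The dimmer Acot3 probe stood at -0.83, -4.30 and -1.92 at ZT1, where the lowest array was not well above background, and at 0.88, 0.34 and 1.14 at ZT13. On the measured signals it was 8.80-fold higher (3.14, SE 0.73, adjusted p = 0.00451), and without control ZT1 replicate 2, the dim array, the difference was 2.16. In mutant liver the time difference was 0.01 for Acot12, 0.33 for the brighter and -0.45 for the dimmer Acot3 probe, and none passed.

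Of the 7 genes, 4 differed with time in control liver, 3 higher and 1 lower at ZT13, against 51.2% of all genes; by single probes 6 of 9 did, 4 higher and 2 lower, against 50.5%. The share of members called is thus near that of all genes, while the median of all genes was -0.15 for this comparison. Slide as a term depends here on the adipose mutant ZT1 arrays and cannot settle these calls. With it none of the 4 was kept: Acot4 was at 0.60 (adjusted p = 0.714), Acot12 at 0.47 (0.949), the brighter Acot3 probe at 0.64 (0.677) and the dimmer at 3.14 (0.414). Without control ZT1 replicate 3, or without control ZT13 replicate 3, 2 of the 4 calls were kept; that of Acot4 was kept without any one array (1.88 to 2.45).

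At ZT1, 1 hour after lights on, Acot4, Acot12 and Acot3 were higher in mutant than in control liver. Acot4 was 2.48-fold higher in the mutant, at 0.74 and 0.79 against 0.10, -1.05 and -0.69, without overlap (log2 difference 1.31, SE 0.33, adjusted p = 0.0091). Acot12 was 1.64-fold higher, at 3.65, 3.49 and 3.54 against 2.45, 3.14 and 2.96, without overlap (0.72, SE 0.22, adjusted p = 0.0203). Acot3 was 1.51-fold higher by its brighter probe, at 4.94, 4.43 and 4.52 against 4.14, 3.95 and 4.02, without overlap (0.59, SE 0.22, adjusted p = 0.0495). Its dimmer probe was 5.46-fold higher, at 0.90, -0.73 and 0.13 against -0.83, -4.30 and -1.92 (2.45, SE 0.73, adjusted p = 0.019), and without the dim control array, replicate 2, the difference was 1.47. Since both comparisons share the control arrays of ZT1, the higher values at ZT13 in control liver and at ZT1 in mutant liver are not separate observations.

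**Figure D2:**
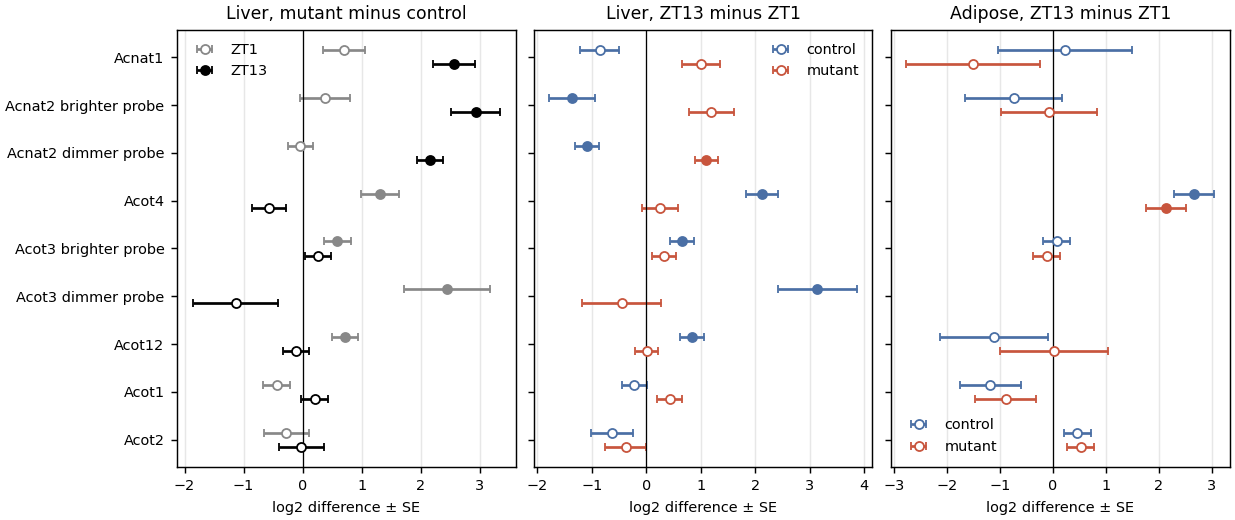
Log2 difference of each member probe (horizontal axis, points with SE bars) in liver between mutant and control at each time, in liver between ZT13 and ZT1 in each genotype, and in adipose tissue between ZT13 and ZT1 in each genotype. The dimmer Acot3 and Acnat2 probes were not tested in adipose tissue and have no point there. Filled points have an adjusted p under 0.05; Acot4 is filled for the control time difference in liver and for both genotypes in adipose tissue, and the Acnat probes are filled for the genotype difference at ZT13.

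These were 3 of 7 genes, all higher in the mutant, against 45.4% of all genes, and by single probes 3 of 9 against 44.3%. The Acot3 call by its brighter probe was kept in 3 of 12 fits that left out 1 array, and that of Acot12 was lost without control ZT1 replicate 1 (adjusted p = 0.0661) or mutant ZT1 replicate 1 (0.06). The dimmer Acot3 probe lost its call without mutant ZT1 replicate 1 (adjusted p = 0.0706). With slide as a term, which again depends on the adipose mutant ZT1 arrays, the Acot4 difference was -0.36 (adjusted p = 0.897). Acot12 (0.06, adjusted p = 0.996) and the Acot3 probes (0.50 and 2.36, 0.817 and 0.622) lost their calls in that fit. The dimmer Acot3 probe also had an interaction past the threshold (-3.59, SE 1.03, adjusted p = 0.0234; 0.402 with slide as a term), and Acot12 did not (-0.83, adjusted p = 0.0593). The Acnat genes at ZT1 had differences of 0.71 for Acnat1 (adjusted p = 0.12) and 0.38 for Acnat2 (adjusted p = 0.471); centred on the median, that of Acnat1 was 1.21 and passed (adjusted p = 0.0215).

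Acot1 and Acot2 gave no call by genotype or time in liver. Acot1 stood at 5.14, 4.28 and 4.16 in control and 4.17, 4.05 and 4.06 in mutant liver at ZT1, and at 4.44, 4.35 and 4.15 in control and 4.35, 4.68 and 4.53 in mutant liver at ZT13. Its groups overlapped except for mutant ZT1 against mutant ZT13 (0.43, adjusted p = 0.452), and 1 control array at ZT1 was above all others. Acot2 stood at -2.31, -2.40 and -1.96 in control and -2.60, -2.55 and -2.35 in mutant liver at ZT1. At ZT13 it stood at -2.43, -3.45 and -2.68 in control and -3.89, -2.35 and -2.39 in mutant liver. The largest of its 4 pairwise differences was -0.63, between ZT13 and ZT1 in control liver (adjusted p = 0.185), where the arrays did not overlap, it was 0.01 centred on the median, and with normexp background correction it passed as lower at ZT13 (-0.64, adjusted p = 0.0361).

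In white adipose tissue Acot4 was the 1 member that passed by time, in both genotypes, and higher at ZT13. In each genotype the ZT1 and ZT13 arrays lay on different slides, so time and slide cannot be told apart. In control adipose Acot4 stood at -2.14, -2.63 and -2.40 at ZT1 and at 0.40, 0.24 and 0.17 at ZT13. These do not overlap, and the difference of 2.66 (SE 0.38) is 6.32-fold, with an adjusted p of 0.00594. In mutant adipose Acot4 stood at -2.90, -2.83 and -1.20 at ZT1 and at -0.23, -0.00 and -0.30 at ZT13, again without overlap. It was 4.38-fold higher at ZT13 (2.13, SE 0.38, adjusted p = 0.0203). The members called were 1 of 7 against 15% of all 23369 genes in control and 1 of 7 against 1.88% in mutant adipose.

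**Figure D3:**
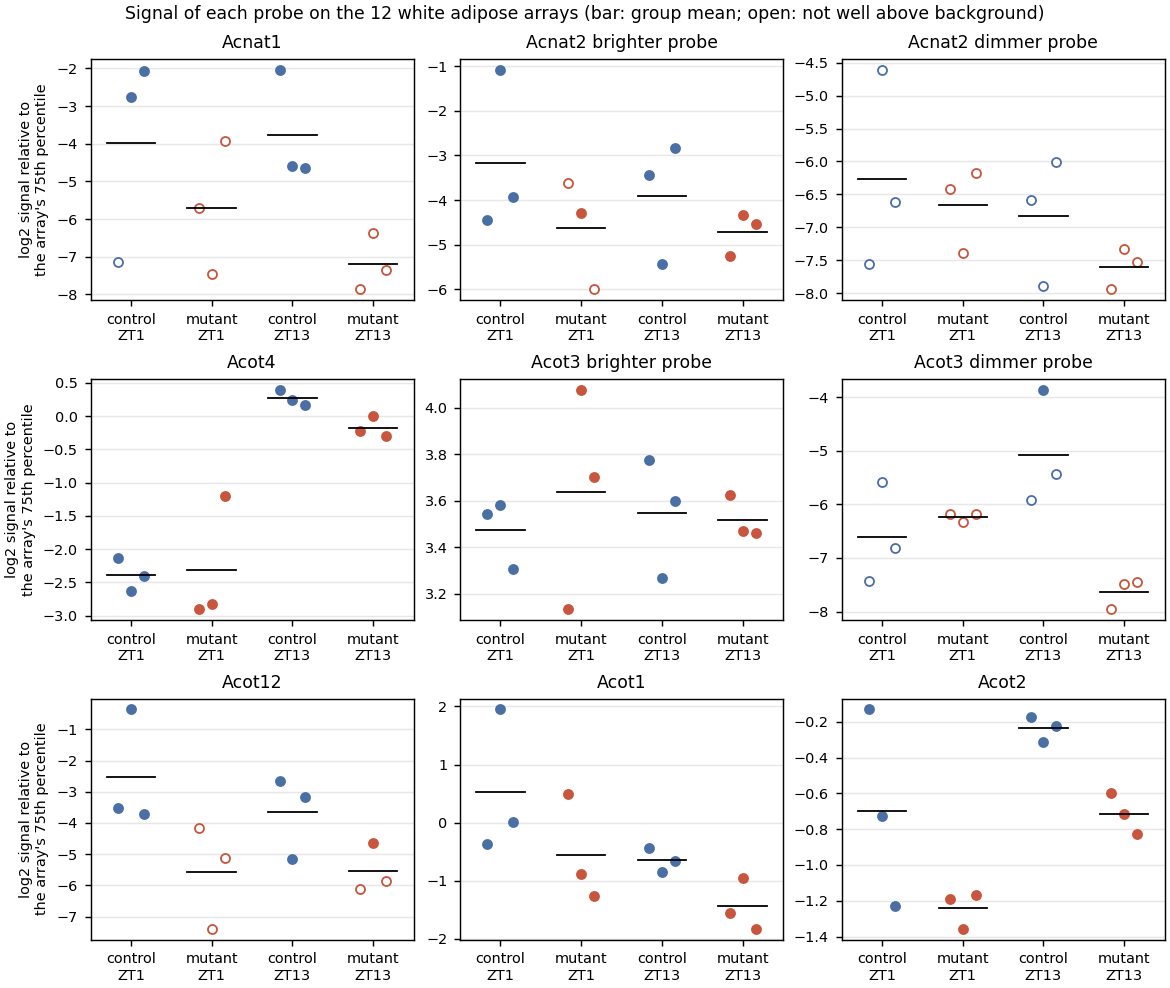
Log2 level of each member probe (vertical axis, log2 signal minus the array's 75th percentile) on the 12 adipose arrays, by genotype and time (horizontal axis). Points are arrays, bars are means of 3 arrays and open points were not well above background; the ZT13 points of Acot4 lie above its ZT1 points in both genotypes, and most Acnat1 and Acot12 points of the mutant groups are open.

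The time difference of Acot4 did not differ detectably between the genotypes in adipose tissue: by limma no member passed the interaction test there, none had an unadjusted p under 0.05, and 0.124% of all genes passed. In liver the same test passed for Acot4, with a rise in control only; whether the interaction differs between the tissues was not tested. In the mutant the adipose call was lost without mutant ZT1 replicate 1 (adjusted p = 0.08) or 2 (0.0737), without mutant ZT13 replicate 1 (0.0987), 2 (0.0907) or 3 (0.0876), and with a replicate block (0.0557). With slide as a term the difference was 0.99 in control (adjusted p = 0.521) and 1.24 in mutant mice (adjusted p = 0.816); with slide as a random block it was 1.66 (0.296) and 1.97 (0.93).

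Macrophage markers also differed in adipose tissue with time: the summed log2 level of the 6 markers was 5.95 to 6.13 at ZT1 and 5.03 to 5.57 at ZT13 in control, and 6.10 to 6.74 and 4.29 to 4.92 in mutant mice. Of the 6 markers 1 fell in control, against 15% of all genes called, and 4 fell in mutant mice, against 1.88%. In tissue RNA, fewer cells of a type and less RNA per cell cannot be told apart, and the part of cell mixture in the Acot4 difference was not tested.

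No member passed the genotype test in adipose tissue at ZT1 or at ZT13, by limma. At ZT1 1 of 7 had an unadjusted p under 0.05 and 0% of all genes passed, with 1822 of 23369 under 0.05 unadjusted. At ZT13 1 of 7 had an unadjusted p under 0.05 and 0.0428% of all genes, or 10, passed, with 1131 of 23369 under 0.05 unadjusted. The largest differences were those of Acot12 and Acnat1, which were higher in liver. Acnat1 entered the adipose test only through its control ZT13 arrays and Acot12 only through its control groups. They were thus tested because of the side where they were brighter, and their differences and lack of overlap are descriptions only. Acot12 stood at -3.53, -0.36 and -3.72 in control adipose at ZT1, and at -4.17, -7.39 and -5.13 in the mutant, where none was well above background. The groups did not overlap and control was at least 3.84-fold brighter (log2 difference -3.03, SE 1.02, adjusted p = 0.552). Acnat1 at ZT13 stood at -2.04, -4.59 and -4.65 in control and at -7.87, -6.36 and -7.36 in the mutant, not well above background, with control at least 4.17-fold brighter (-3.43, SE 1.26, adjusted p = 0.857).

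Hepatocyte markers also varied from one adipose array to the next. The summed log2 level of 12 hepatocyte markers, among them albumin, was 10.1 to 10.9 in liver, and in control adipose 7.11, 9.27 and 7.22 at ZT1 and 7.09, 5.38 and 7.03 at ZT13. In mutant adipose it was 7.08, 0.99 and 6.02 at ZT1 and 4.75, 6.18 and 4.81 at ZT13, and 7 to 12 of the 12 markers were well above background on an adipose array. The array with the highest sum, control ZT1 replicate 2, had the highest adipose level of Acot12 (-0.36), of Acot1 (1.95) and of Acnat2 (-1.09). The array with the lowest sum, mutant ZT1 replicate 2, had the lowest level of Acot12 (-7.39). It did not have the lowest Acot1 (-0.88), Acnat1 (-7.45) or Acnat2 (-4.28). Over the 12 adipose arrays Pearson r with the sum was 0.92 for Acot12, 0.65 for Acot1, 0.62 for Acnat1 and 0.55 for the brighter Acnat2 probe. For Acot2 it was 0.35, for Acot4 -0.02 and for the brighter Acot3 probe -0.51. At ZT1 the median difference of the 12 markers between mutant and control was -3.77 and at ZT13 -1.59, with 0 of 12 past the limma test in each and 11 and 0 of 12 under an unadjusted p of 0.05. The part of hepatocyte RNA in the adipose values of Acot12, Acot1 and the Acnat genes was not tested.

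**Figure D4:**
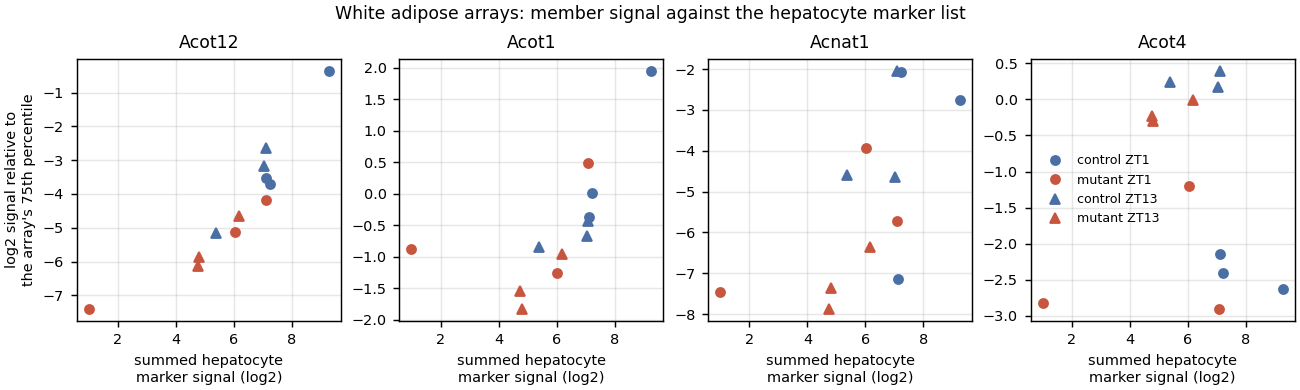
Log2 level of Acot12, Acot1, Acnat1 and Acot4 (vertical axes) against the summed log2 level of 12 hepatocyte markers (horizontal axis) on the 12 adipose arrays. Points are arrays, coloured by genotype, with circles for ZT1 and triangles for ZT13. Points that were not well above background are filled like the others. The rightmost array, at 9.27, has the highest Acot12 and Acot1 values, and Acot4 is split by time.

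Leaving out 1 array moved the adipose genotype difference at ZT1 of Acot12 between -3.72 and -1.94, of Acnat1 between -3.28 and -0.75 and of Acot1 between -1.60 and -0.37, without a call. Acot1 in control adipose stood at -0.37, 1.95 and 0.00 at ZT1 and at -0.44, -0.85 and -0.67 at ZT13 (log2 difference -1.18, adjusted p = 0.152). In mutant adipose it stood at 0.49, -0.88 and -1.27 at ZT1 and at -1.55, -0.95 and -1.83 at ZT13 (-0.89, adjusted p = 0.322). Acot2, the member that was higher in adipose than in liver, stood at -0.13, -0.73 and -1.23 in control adipose at ZT1 and at -0.18, -0.31 and -0.22 at ZT13 (0.46, adjusted p = 0.197). In mutant adipose Acot2 stood at -1.19, -1.36 and -1.17 at ZT1 and at -0.60, -0.72 and -0.82 at ZT13, without overlap (0.53, adjusted p = 0.205). Centred on the median, the control difference of Acot2 was 0.97 and passed narrowly (adjusted p = 0.0499). Its mutant arrays were below all control arrays at ZT13 (-0.48, adjusted p = 1). The brighter Acot3 probe stayed between 3.13 and 4.08 on all 12 adipose arrays.

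Among the other acyl-CoA thioesterases with Baat, 11 genes, 8 were higher and 3 lower in liver than in adipose tissue, where 75.4% of all genes differed. With time in control liver 5 rose and 1 fell, against 51.2% of all genes called, with a median difference of 0.50, beside -0.15 over all genes. Acot11 (1.49), Them4 (0.95) and Baat (0.68) were among those that rose. At ZT1, 6 were higher and 2 lower in the mutant (median 0.49, beside -0.17 and 45.4% called over all genes), among them Acot6 (1.39), Acot11 (1.12) and Baat (0.87) higher and Acot13 (-0.58) lower. At ZT13 none of the 11 passed the genotype test by limma, Baat included, while Acnat1 and Acnat2 did. Of the 11, 4 had an unadjusted p under 0.05, beside 3249 of all 21831 genes. A difference between Baat and the Acnat genes was not tested. In adipose tissue none of the 11 passed by limma in any of the 5 comparisons. At most 2, for time in control mice, had an unadjusted p under 0.05, beside 9020 of all 23369 genes.

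Of the 16 genes for peroxisomal handling of acyl-CoA, 8 rose and 3 fell in control liver from ZT1 to ZT13 (median 0.57, beside -0.15 and 51.2% called over all genes). Acox3, an acyl-CoA oxidase, rose by 1.11, Ehhadh, the bifunctional enzyme of peroxisomal beta-oxidation, by 1.08, the coenzyme A hydrolase Nudt19 by 0.93 and Pex11a, a factor of peroxisome division, by 0.86. At ZT1, 6 were higher and 2 lower in the mutant, against 45.4% of all genes called, with Abcd2, a transporter of very-long-chain acyl-CoA, at 2.59 and Ehhadh at 0.95. At ZT13 none passed the genotype test by limma (3 of 16 had an unadjusted p under 0.05, beside 3249 of all 21831 genes). A called interaction was found for 5 of 16, near the 31.2% of all genes. All 5 were negative, including Acox3 (-1.13), Ehhadh (-1.08) and Nudt19 (-1.03). In control adipose 2 rose with time, Abcd2 (2.29) and Acox3 (0.99), and Pex11a fell by 0.68.

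Acyl-CoA synthetases, which make the substrate of the thioesterases, were higher in liver for 12 of 13 genes and lower for 1, against 75.4% of all genes called. In control liver 4 rose with time and 1 fell, led by the medium-chain synthetase Acsm5 (2.16), and at ZT1 4 were higher and 2 lower in the mutant (Acsm5 1.98, Acsl6 -1.20), beside 51.2% and 45.4% of all genes called. At ZT13 none of the 13 passed the genotype test by limma (1 had an unadjusted p under 0.05, beside 3249 of all 21831 genes). Of 13 genes for PPAR alpha and its targets, 3 rose and 1 fell in control liver with time, against 51.2% of all genes called. At ZT13 1 was higher and 1 lower in mutant liver, against 3.01% of all genes called: Pdk4, the kinase that shuts off pyruvate dehydrogenase, was higher by 2.41 (adjusted p = 0.0015), and Cpt1a, the entry enzyme of mitochondrial fatty acid oxidation, was lower (-0.81, adjusted p = 0.00957). These pathway lists were chosen with earlier results of these arrays known.

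The clock-output factors Dbp, Tef and Hlf and the opposing repressor Nfil3 were measured on the same arrays. In control liver Dbp rose by 3.34 and Tef by 2.33 from ZT1 to ZT13 and Nfil3 fell by 2.19, and in mutant liver Dbp fell by 3.46 and Nfil3 rose by 1.61. At ZT13 Dbp was lower (-3.59) and Nfil3 higher (1.34) in mutant than in control liver, and at ZT1 Dbp was higher (3.20) and Nfil3 lower (-2.46). In control adipose Dbp rose by 2.25 and Tef by 2.05, while in mutant adipose Dbp fell by 2.15 (adjusted p = 0.0132) and Nfil3 rose by 2.47 (adjusted p = 0.0186). Acot4 was higher at ZT13 in adipose tissue of both genotypes, while Dbp was higher at ZT13 in control and lower in mutant adipose. In mutant liver, where Dbp fell, Acot4 did not pass by time. Whether Dbp and Acot4 are linked was not tested.

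Across the 12 liver arrays Acnat1 and Acnat2 varied together, with a Pearson r of 0.93 between Acnat1 and the brighter and 0.91 between Acnat1 and the dimmer Acnat2 probe, and 0.95 between the Acnat2 probes. The Acot3 probes correlated less with each other, at 0.62, and at -0.12 over the 12 adipose arrays; the dimmer one was nearer to Acot4 (0.87) and the brighter one to Acot12 (0.72). These are descriptions over arrays that share groups, slides and scaling. Outside the members, the genes most like Acnat1 in liver were Pde9a, Zmynd11 and Nodal (each 0.93), and those most like Acnat2 were Sgsm1 (0.95), Slc17a1 (0.95) and Papss1 (0.92). Acot4 was most like Cyb5d1 (0.97), Rc3h2 (0.96) and Fbxl14 (0.96) over 11 arrays, and Acot12 most like Lyrm9 (0.95), Gcnt2 (0.94) and Bag4 (0.93). Acot1 was most like Esr1 (0.94), Atf4 (0.92) and Rplp2 (0.91), and Acot2 most like Rab6b (0.85), Vav1 (0.84) and Hlx (0.83).

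The genes most like Acot3 by its brighter probe were Cym (0.96), Olfr821 (0.95) and Pcmtd1 (0.95). The probes of all 3 hold an unbroken CA repeat, of 12, 9 and 13 bases, beside 11 bases in the Acot3 probe; capitals mark it in the sequences. An unbroken CA repeat of 8 or more bases was held by 203 of the 21831 probes tested in liver, 0.93%, a length chosen after these probes were seen.
Cym probe (chr3:107014243-107014272, minus strand, mm9): cccccCACACACACACAatttatcaagtgg
Olfr821 probe (chr10:129471243-129471272): gcacagACACACACAtaatagaattaatga
Pcmtd1 probe (chr1:7163649-7163678): atttctaatACACACACACACAtccctgta
The probes most like the other 6 members hold no such repeat. Between mutant and control liver, the 203 probes had a median difference of -0.19 at ZT1, beside -0.17 for all genes, and 0.14 at ZT13, beside 0.02. Between ZT13 and ZT1 their median was -0.06 in control liver, beside -0.15, and 0.17 in mutant liver, beside 0.04. These medians describe the probes as a set and do not speak for any 1 probe. Whether the brighter probe reads Acot3 alone was not tested.

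Promoters, taken from RefSeq on build GRCm38.p6 as 250 bases before to 50 after the gene start, matched all 7 members with 9 starts. Of the motifs searched on both strands, the D-box (TTATGTAA, TTACGTAA or TTATGCAA), bound by Dbp, Tef, Hlf and Nfil3, was in none of the 9 and in 1.78% of all 32851 promoters. The ROR core TAGGTCA (2.61% of all) and the PPAR element, a pair of AGGTCA in 1 direction with 1 base between (0.0396%), were also in none. The E-box CACGTG, the site of the core clock activators, was in the Acot4 promoter alone of the 9 and in 7.15% of all promoters. It begins 66 bases before the Acot4 start and is shown in capitals. Whether it bears on the Acot4 values was not tested.
Acot4 promoter (chr12:84038301-84038330, GRCm38.p6, plus strand): ctttcacaacacCACGTGggagtggcgaga
This is a match of letters only, and these arrays do not measure binding.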

How the data were processed

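Total RNA of 24 samples was labelled with Cy3 and hybridised to 1-colour Agilent arrays. The deposited scanner tables, made by the authors with Agilent Feature Extraction 10.7.3.1 per the file headers (probe build mm9), give per spot a background-corrected signal intensity and flags for outliers, saturation and signal well above background. The deposited value table holds log2 values; it equalled the log2 signal minus a constant per array, within 0.01, for 100% of probes, with array medians of -3.91 to -3.02, and served as an alternative.

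Control spots and outlier spots (0.238% to 0.685% of spots per array) were dropped, spots of a probe were averaged as log2 intensity, and the array's 75th percentile was subtracted. Probes were named through RefSeq accessions (26762), current symbols (3819) or synonyms (639), and 24461 kept the file's name. A gene was read by its brightest probe per tissue and tested where 1 group or more had all 3 of its arrays well above background on it (21831 genes in liver, 23369 in adipose tissue, 24289 over both). Linear models were fitted with limma 3.58.1 (R 4.3.3; functions lmFit and eBayes), on the 4 groups of a tissue or, between tissues, on all 8, with two-sided tests and Benjamini-Hochberg adjustment over all genes, threshold 0.05. Second probes were tested in a fit of every probe. The fits were tested on simulated data. The number of arrays limits the precision.

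Named genes are the 7 members, up to 4 genes of lowest p per list and comparison, and the 3 genes most correlated with each member over the liver arrays. Members and lists were chosen with earlier results of these data known. Alternatives were normexp background correction (offset 50), quantile scaling, other filters, every probe, the deposited table, a 24-array fit, slide and replicate blocks, within-slide fits and leaving out each array, and median centring, which was chosen after seeing the data. Replicate numbers were not used to pair the samples, since the labels do not say whether same-numbered liver and adipose arrays share a mouse. Deviations correlated at -0.48 to 0.16 over 12 same-numbered pairs and at -0.66 to 0.69 over 24 different-numbered pairs, which does not decide it.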

Additional observations from a re-analysis of the deposited data

Results flagged for a closer look

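In liver, 5 member probes had a time difference that differed between the genotypes by the interaction test of limma. The difference between the mutant and the control change from ZT1 to ZT13 was 1.86 for Acnat1 (adjusted p = 0.0173), 2.55 for the brighter Acnat2 probe (adjusted p = 0.00911) and 2.19 for the dimmer Acnat2 probe (adjusted p = 0.000877), on the log2 scale. It was -1.88 for Acot4 (adjusted p = 0.0109) and -3.59 for the dimmer Acot3 probe (adjusted p = 0.0234). The dimmer Acot3 probe kept its call in 9 of 12 fits that left out 1 array, and the other 4 probes in 12 of 12. The control ZT1 arrays, which enter all 5 values, lay on a slide with no other liver array. The mutant liver arrays of ZT1 and ZT13, which also enter them, lay on different slides.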

How the results depend on the processing

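Counts of the 7 members past the threshold that moved by more than 1.5 times were as follows. With slide as a fixed block in the 24-array fit they were 0 for the control time difference in liver (4 in the fit reported), 0 for the interaction (3), 1 for the liver genotype difference at ZT13 (2), 0 at ZT1 (3), and 0 for the adipose time difference in control and in mutant mice (1 each); slide as a random block also gave 0 for both adipose time differences. The 24-array fit without slide gave 2, 1, 0 and 1 for the 4 liver comparisons in that order. Median centring, chosen after seeing the data, gave 2 for the control time difference in adipose tissue. Under the other alternatives, leaving out arrays apart, the counts were 3 to 5 for the control time difference in liver, 3 to 4 for the interaction, 2 to 4 for the liver genotype difference at ZT1 and 2 for that at ZT13. With probes well above background on all arrays, 3 members remained to be tested between tissues, and 3 passed. Leaving out 1 array gave 2 to 4 for the control time difference in liver, 3 to 4 for the interaction, 1 to 3 for the genotype difference at ZT1 and 0 to 1 for the time difference in mutant adipose. A replicate block gave 0 in place of 1 for that last comparison and changed no other count. The labels do not say that the numbers pair the samples. Called values reversed 2 times, both with slide as a fixed block: Acnat2 with time in control liver (1.43) and Acot4 between genotypes in liver at ZT1 (-0.36). Both values use control ZT1 and so depend on the adipose mutant ZT1 arrays that tie slide 1 to the others. Apart from leaving out arrays, member values lost a call under 44 combinations of comparison and alternative, gained one under 10 and kept it under 241; the cause was not tested. Dim signal limits Acnat1, Acot12 and the dimmer probes in adipose tissue, where differences are bounds.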
